A study of Mus musculus with 8 samples.

Results

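The Ly6 surface antigen family is described here across bone marrow-derived macrophages (BMDMs) with and without the exonuclease gene Trex1. Its 6 members, Ly6a, Ly6e, Ly6i, Ly6c1, Ly6c2 and Ly6g, were taken from 54532 genes in the files, and 5 of them had enough counts to be among the 14591 genes tested. The family was selected on the measured level of Ly6a in these libraries, which was much higher in Trex1-/- cells and came back little under STING antagonists. The comparisons of Trex1-/- with wild-type (WT) cells and of each antagonist with vehicle are therefore given for the members as descriptions, with no p-value, and the counts of members past a threshold there are printed beside those of all genes with nothing read from them. The comparison between the antagonists is the one given for the members as a test.

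Polyadenylated RNA was sequenced from 8 libraries in 4 groups of 2. They were WT BMDMs, Trex1-/- BMDMs, and Trex1-/- BMDMs given either H151 or SN-011, small molecules that inhibit STING, the adaptor that relays the sensing of cytosolic DNA to interferon genes. Marrow came from mice aged 6 to 8 weeks and grew for 7 days in medium with L929 supernatant as the source of macrophage growth factor. Cells then received dimethyl sulfoxide or an antagonist for 12 h. The dose of H151 was 500 nM. For SN-011 a dose is missing from the labels. The study's methods give the mice as C57BL/6J and name the same concentration for both antagonists. The deletion is in the germ line, so every cell of a Trex1-/- culture lacks the gene. The study describes the libraries of a group as independent experiments. The labels do not tie them to separate animals, so p-values measure the spread between these libraries. The SN-011 libraries carry a separate treatment text and later records than the other 6, so a batch and the SN-011 treatment cannot be told apart.

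Library totals ran from 11845470 to 17284863 counts. Levels are given as CPM, in which counts are scaled so that libraries of different size can be compared, with TMM factors, which correct for library composition. On this scale 1 count was worth 0.0581 to 0.0848 CPM. Below 3 counts, or 0.174 to 0.254 CPM, a gene was treated as not measurable, a floor that covers counting error only. Trex1 had 0 counts in all 8 libraries, WT included, and its exons lie within those of Atrip, so the knockout rests on the labels. The macrophage markers Adgre1, Csf1r and Cd68 were high throughout, and the 7 macrophage markers summed to between 29600 and 31834 CPM in every library. At the threshold used below, 3 of them were higher in Trex1-/- than in WT cells and 1 was lower under each antagonist. Of all tested genes 9.27% were higher in Trex1-/- cells, 1.84% were lower under H151 and 2.22% were lower under SN-011.

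LY6 proteins are small, disulfide-rich domains held on the cell surface by a glycosylphosphatidylinositol (GPI) anchor. Several serve as the antibody targets by which mouse blood cells are sorted. Ly6a encodes Sca-1, used to mark haematopoietic stem and progenitor cells and known to be raised on many cells by interferon. Ly6c1 and Ly6c2 encode the Ly6C antigens of inflammatory monocytes and some lymphocytes and endothelial cells, and Ly6g encodes the antigen used to mark neutrophils. Ly6e is a broadly expressed, interferon-inducible member known for its effects on virus entry, and Ly6i is a close relative of Ly6a.

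Because the members resemble one another, the start of each coding sequence is shown to make clear which transcripts a read could mistake. The stretches below run from base 1 to base 90 of the coding sequence in the GENCODE transcripts of mouse build GRCm38. Capitals mark bases that differ from Ly6a in a pairwise alignment. Ly6e could be aligned only with gaps and is printed without marks.
Ly6a: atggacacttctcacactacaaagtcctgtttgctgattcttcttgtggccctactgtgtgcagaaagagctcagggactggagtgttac
Ly6i: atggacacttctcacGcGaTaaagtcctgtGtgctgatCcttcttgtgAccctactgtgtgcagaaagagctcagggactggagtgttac
Ly6c1: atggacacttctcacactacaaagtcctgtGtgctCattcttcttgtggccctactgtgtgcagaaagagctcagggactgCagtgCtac
Ly6c2: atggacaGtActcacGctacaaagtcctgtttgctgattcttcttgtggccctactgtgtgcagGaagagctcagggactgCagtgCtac
Ly6g: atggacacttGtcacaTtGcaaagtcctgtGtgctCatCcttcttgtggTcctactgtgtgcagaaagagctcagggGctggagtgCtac
Ly6e: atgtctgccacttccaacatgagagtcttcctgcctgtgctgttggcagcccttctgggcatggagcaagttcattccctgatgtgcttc

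In this stretch Ly6c1 differed from Ly6a at 4 bases, Ly6i and Ly6c2 at 6 each, and Ly6g at 9. Over the whole coding sequence, identity with Ly6a was 86.3% for Ly6i, 83.1% for Ly6g, 81.8% for Ly6c1 and 81.6% for Ly6c2, against 52.2% for Ly6e. Ly6c1 and Ly6c2 were the closest pair, at 97.7%, with a run of 188 bases in common. Of the 150-base windows of each transcript, none of Ly6a, Ly6e, Ly6i or Ly6g occurred in another gene's transcripts. In the Ly6C pair 39 of 695 windows of Ly6c1 (5.61%) and 39 of 673 of Ly6c2 (5.79%) occurred in the other gene, so part of their reads could not be assigned and their values are less certain.

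All 6 genes lie in a single cluster of 204 kb on chromosome 15 (GRCm38). Ly6e (ENSMUSG00000022587) lies at 74955051 to 74959905 on the plus strand. On the minus strand follow Ly6i (ENSMUSG00000022586) at 74979534 to 74983430, Ly6a (ENSMUSG00000075602) at 74994877 to 74998031, Ly6c1 (ENSMUSG00000079018) at 75044018 to 75048830 and Ly6c2 (ENSMUSG00000022584) at 75108158 to 75111970. Ly6g (ENSMUSG00000022582) closes the row at 75155240 to 75159126 on the plus strand. No exon of a member overlaps another annotated gene.

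Ly6e and Ly6a carried nearly all of the family's counts. In WT libraries the level of Ly6a was 11.54 and 11.03 CPM, in vehicle-treated Trex1-/- libraries 412 and 435 CPM, in H151 libraries 362 and 529 CPM, and in SN-011 libraries 297 and 316 CPM. Both WT libraries lay far below the other 6, the H151 libraries lay on either side of the vehicle libraries, and the SN-011 libraries lay below both. The level of Ly6e was 438 and 383 CPM in WT, 1656 and 1478 CPM in Trex1-/-, 1309 and 1316 CPM under H151, and 1095 and 1141 CPM under SN-011. Its 4 groups did not overlap, and ran from WT through SN-011 and H151 up to vehicle-treated Trex1-/- cells. Fewer cells of a type and less RNA per cell cannot be told apart in such bulk libraries.

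The other 4 members were rare. Ly6i had 5 and 5 counts in WT, 22 and 18 in Trex1-/-, 12 and 16 with H151, and 12 and 10 with SN-011. Ly6c2 had 3 and 1 counts in WT, 13 and 29 in Trex1-/-, 19 and 21 with H151, and 24 and 20 with SN-011. For both genes, every library of Trex1-/- cells had more counts than either WT library. Ly6c1 had 8 and 7 counts in WT, 10 and 4 in Trex1-/-, 9 and 18 with H151, and 12 and 2 with SN-011, and its libraries overlapped between WT and Trex1-/-. Ly6g, the neutrophil antigen, had 0 counts in both WT libraries, 1 and 0 in Trex1-/-, 1 and 3 with H151, and 3 and 3 with SN-011. No library put it above 3 counts, so it was not tested, and is given no fold.

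**Figure D1:**
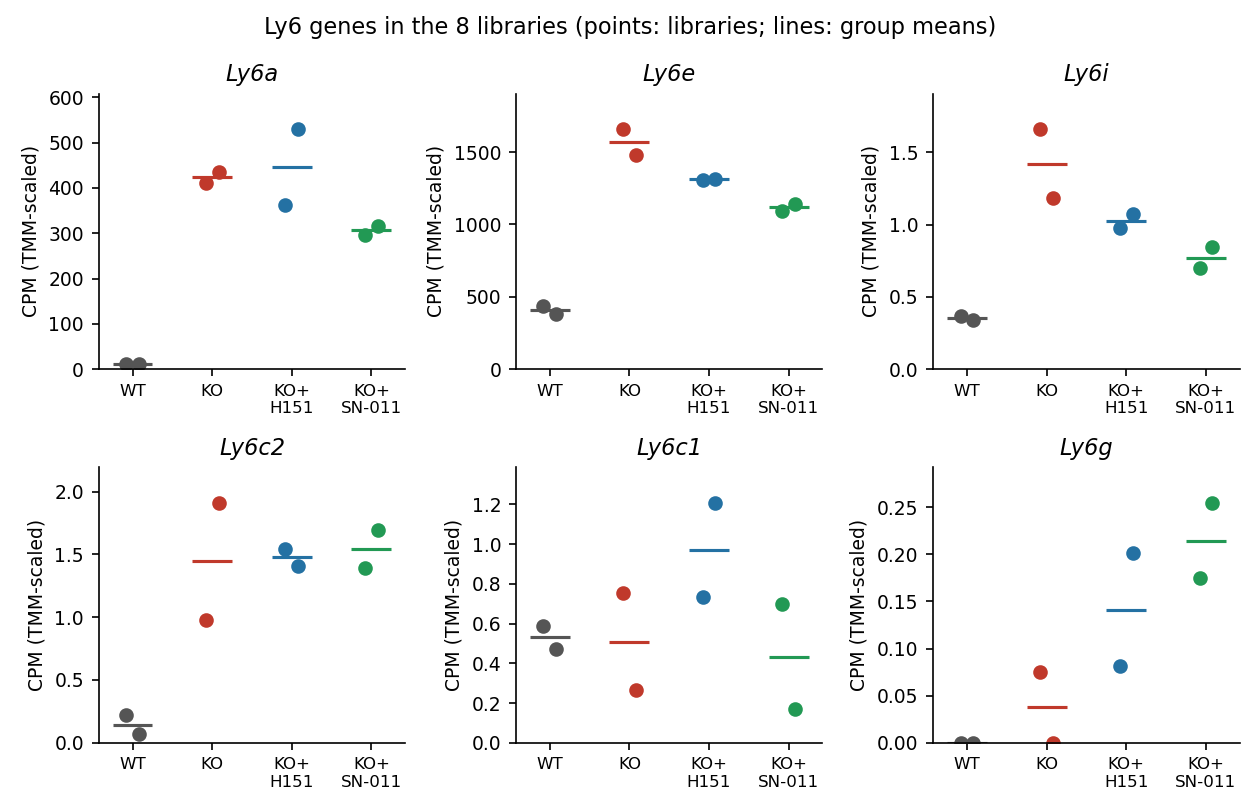
Level of each Ly6 gene in TMM-scaled CPM (vertical axis, from 0, scaled separately per gene) in the 4 groups, with each library as a point and the group mean as a line. Ly6a sits at 11.03 to 11.54 CPM in WT and at 297 to 529 CPM in the 6 Trex1-/- libraries, while Ly6i, Ly6c1, Ly6c2 and Ly6g stay at or below 1.91 CPM everywhere.

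Levels were compared between genes per kilobase (kb) of annotated exon, counting every exon of a gene once. On that scale the level of Ly6e was 108 ± 10.2 and that of Ly6a 9.37 ± 0.30 CPM per kb in WT (SD, n = 2). In Trex1-/- BMDMs they were 414 ± 33.3 and 351 ± 13.8 CPM per kb (SD, n = 2). With SN-011 they were 295 ± 8.6 and 254 ± 11.01 CPM per kb (SD, n = 2). With H151 they were 347 ± 1.3 and 370 ± 97.9 CPM per kb (SD, n = 2), a difference smaller than the spread between the Ly6a libraries. The level of Ly6e per kb was 12.07 and 11.05 times that of Ly6a in the WT libraries and between 0.792 and 1.28 times in the other 6. Among all genes ordered by mean CPM, with rank 1 the highest, Ly6a stood at rank 8667 in WT and at ranks 335, 295 and 515 in Trex1-/-, H151 and SN-011 cells. Ly6e stood at rank 316 in WT and at ranks 44, 58 and 64 in the same groups. Ly6i, Ly6c1, Ly6c2 and Ly6g had group means of at most 1.23 CPM per kb, and their order among themselves rests on few counts.

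In Trex1-/- against WT cells, Ly6a, Ly6e, Ly6i and Ly6c2 were higher and Ly6c1 showed little difference. The mean level of Ly6a went from 11.3 ± 0.36 to 423 ± 16.7 CPM (SD, n = 2). This was a log2 fold change of 5.23 ± 0.16 (SE), or 37.5-fold. For Ly6e the means were 410 ± 38.8 and 1567 ± 126 CPM (SD, n = 2) and the log2 fold change 1.93 ± 0.071 (SE), or 3.82-fold. Ly6a was thus far lower than Ly6e to begin with and differed far more. The log2 fold change was 1.98 ± 0.48 (SE) for Ly6i. It was 3.29 ± 0.64 (SE) for Ly6c2, whose summed counts of 42 against 4 give a ratio of 10.5 with a counting interval of 3.80 to 40.2. WT replicate 2, at 1 count, lay below the floor of 3 counts, so the size of this difference is poorly known. For Ly6c1, the nearest relative of Ly6c2, the log2 fold change was -0.093 ± 0.69 (SE), with an interval from -1.59 to 1.41.

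Of the 5 tested members, 4 passed a false discovery rate (FDR) of 0.05 in edgeR's quasi-likelihood test as higher, and none as lower. In this comparison 9.27% of all tested genes passed as higher and 7.11% as lower, and in 56.1% the groups did not overlap, as in 4 of the 5 tested members. Since the contrast was used in the choice of the family, nothing is read from these counts, and a rare gene that enters the test through the group where it is high had to differ. The count was 3 in DESeq2 and without WT replicate 1, WT replicate 2 or Trex1-/- replicate 1, and 2 with a minimum count of 30.

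**Figure D2:**
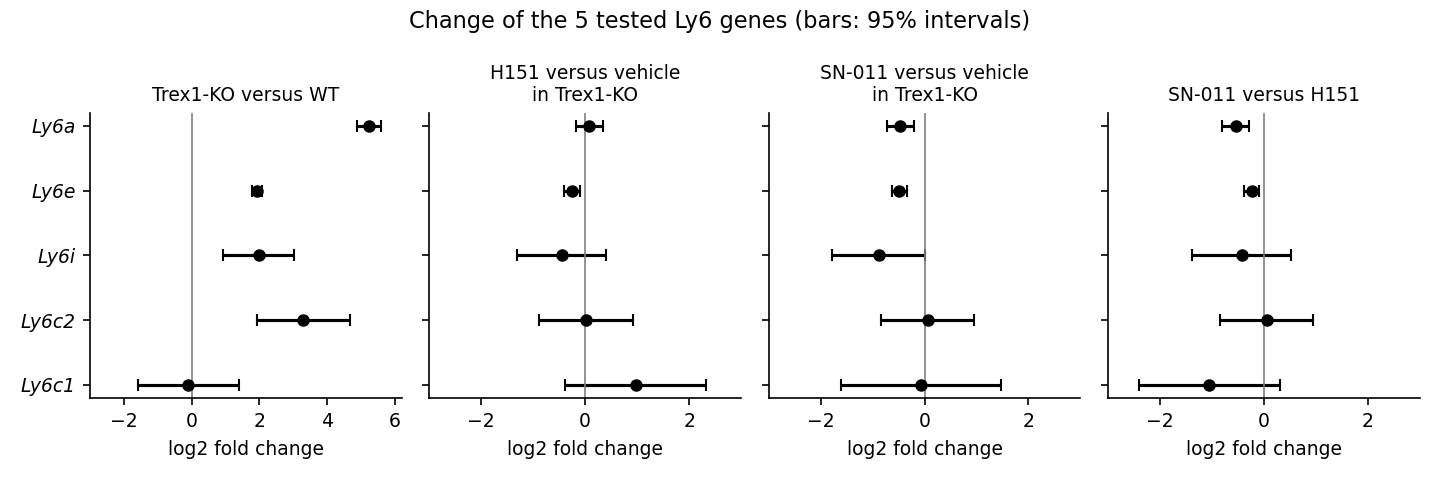
Fitted log2 fold change (horizontal axes) of the 5 tested Ly6 genes in each comparison, with points for the estimate and bars for its 95% interval. The first panel has its own scale. Ly6a lies at 5.23 in Trex1-/- against WT cells and between -0.54 and 0.075 in the other panels, and the bars of the rare genes Ly6i, Ly6c1 and Ly6c2 are wide.

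With H151, the mean of Ly6a lay near that of vehicle-treated Trex1-/- cells, Ly6e was somewhat lower, and the rare Ly6c1 had more counts, with libraries that overlapped. Ly6a averaged 446 ± 118 CPM with H151 (SD, n = 2). Against vehicle its log2 fold change was 0.075 ± 0.12 (SE). The sign of this value rests on a single library. It was 0.32 without H151 replicate 1 and -0.23 without H151 replicate 2, and in neither H151 library did Ly6a come near the WT level. Ly6e averaged 1313 ± 4.9 CPM (SD, n = 2). Its log2 fold change was -0.26 ± 0.068 (SE), and both H151 libraries lay below both vehicle libraries. The fold changes were -0.46 ± 0.40 for Ly6i, 0.010 ± 0.42 for Ly6c2 and 0.98 ± 0.63 for Ly6c1 on the log2 scale (SE). None of the 5 tested members passed an FDR of 0.05 in edgeR, against 2.23% of all tested genes, 0.384% higher and 1.84% lower, while 1 had an unadjusted p under 0.05 and 0 passed in DESeq2. The count was 1, Ly6e as lower, without WT replicate 1, WT replicate 2 or Trex1-/- replicate 2, with the replicate number as a block, and with every gene of at least 1 count tested. It was 1 without H151 replicate 1 too, there Ly6a as higher. The groups did not overlap for 2 of the 5 tested members, against 35.4% of all tested genes, and nothing is read from this since the contrast entered the choice.

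With SN-011, Ly6a and Ly6e were somewhat lower than in vehicle-treated cells and remained far above WT. Ly6a averaged 306 ± 13.3 CPM (SD, n = 2), and the log2 fold change was -0.47 ± 0.12 (SE). Ly6e averaged 1118 ± 32.4 CPM (SD, n = 2), and the log2 fold change was -0.49 ± 0.068 (SE). For both genes the SN-011 libraries lay below the vehicle libraries. The log2 fold changes were -0.88 ± 0.42 for Ly6i, 0.063 ± 0.41 for Ly6c2 and -0.069 ± 0.71 for Ly6c1 (SE), and for the Ly6C pair the libraries overlapped. Of the 5 tested members, 1 passed the FDR of 0.05 as lower and none as higher, against 2.33% of all tested genes, 2.22% lower and 0.11% higher. In 3 of the 5 tested members, and in 43.4% of all tested genes, the groups did not overlap. Nothing is read from these counts either. The count was 0 without SN-011 replicate 1. It was 2 in the edgeR exact test, in the fit of these 2 groups alone, with the replicate block, with every gene of at least 1 count tested and without either H151 replicate.

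The share of the Trex1-/- minus WT difference in CPM that was left under an antagonist puts both readings on a single scale, with 0% at the WT mean and 100% at the vehicle mean. For Ly6a it was 85.1% and 126% in the H151 libraries and 69.3% and 73.8% in the SN-011 libraries. For Ly6e it was 77.7% and 78.3% with H151 and 59.2% and 63.2% with SN-011. Both genes thus kept most of the difference under either antagonist, as the choice of the family required of Ly6a. The shares all use the same WT and vehicle libraries and are given without a test.

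These shares can be set beside those of 30 genes of a list of 32 interferon-response genes that were at least 2-fold higher in Trex1-/- cells, among them Ifit1, Mx1 and Rsad2. Their median share left was 24.3% with H151 (range -4.76% to 43.2%) and 27.5% with SN-011 (range -6.62% to 51.5%). All of them kept less than Ly6a and Ly6e did. For Ly6a the choice of the family required a high share, so nothing is read from its place here. Across 247 genes that passed the FDR at 2-fold or more and averaged at least 2 on the log2 CPM scale, the median share was 44.8% with H151 and 46.4% with SN-011. Ordered from the highest share, Ly6a stood at rank 22 of 247 with H151 and rank 78 with SN-011, and Ly6e at ranks 67 and 94. The ranks of Ly6a bear the same limit. The interferon list as a whole rose in Trex1-/- cells in 32 of 32 genes, fell with H151 in 32 and with SN-011 in 30. Of all tested genes 9.27% rose in Trex1-/- cells, 1.84% fell with H151 and 2.22% fell with SN-011. Between the antagonists no gene of the list was called in edgeR, against 0.158% of all tested genes. There 3 had an unadjusted p under 0.05 and 0 passed in DESeq2. The list summed to 1722 to 2123 CPM in WT, 6989 to 7327 CPM in Trex1-/-, 2958 to 3600 CPM with H151 and 3398 to 3692 CPM with SN-011.

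**Figure D3:**
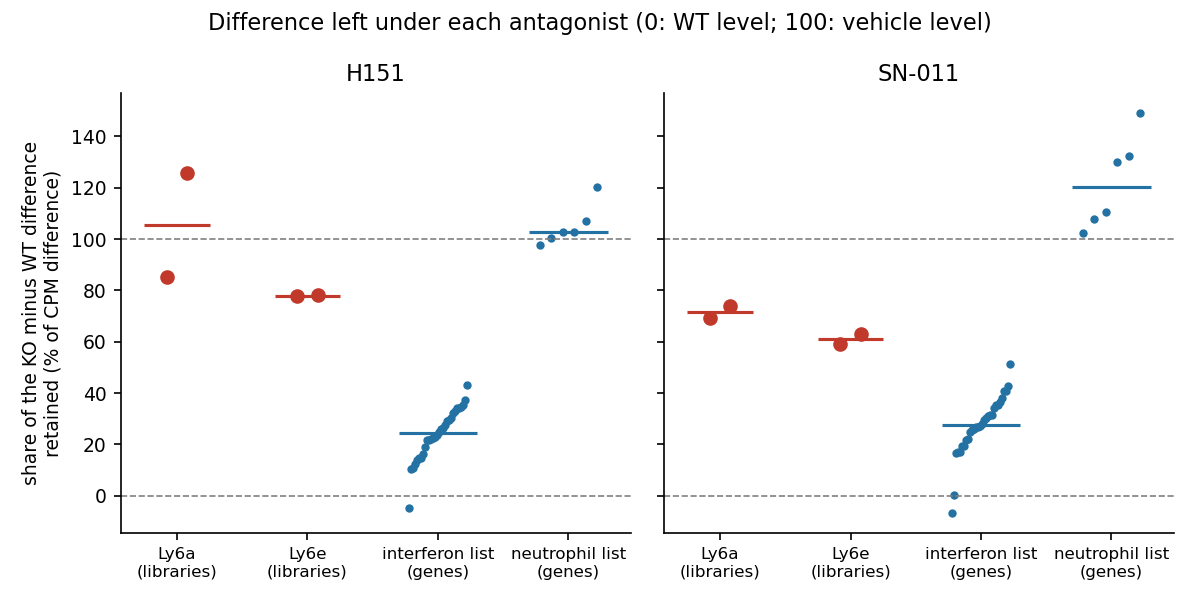
Share of the Trex1-/- minus WT difference in CPM left under H151 and SN-011 (vertical axis, percent), with points for libraries of Ly6a and Ly6e and for genes of the interferon and neutrophil lists that were at least 2-fold higher in Trex1-/- cells, and lines for means or, for the lists, medians. Ly6a and Ly6e lie between 59.2% and 126%, above the interferon genes, whose highest value is 51.5%, and the 6 neutrophil genes lie between 97.8% and 149%.

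SN-011 and H151 were then compared directly, both after 12 h and, per the study's methods, at the same concentration. The SN-011 libraries have later records, so a batch and the choice of antagonist cannot be told apart in this comparison. This was the 1 pair of compounds compared, with p-values adjusted over all 14591 genes. No tested member passed an FDR of 0.05 in edgeR's quasi-likelihood test, against 0.158% of all tested genes, or 23 genes, all of them lower with SN-011. Ly6a was 306 ± 13.3 CPM with SN-011 and 446 ± 118 CPM with H151 (SD, n = 2). The log2 fold change was -0.54 ± 0.12 (SE), with an interval from -0.81 to -0.28 and an adjusted p of 0.170 from edgeR. Both SN-011 libraries lay below both H151 libraries, but the H151 libraries were further apart from each other than the lower of them was from SN-011. For Ly6e the log2 fold change was -0.23 ± 0.068 (SE), with an interval from -0.38 to -0.085 and an adjusted p of 0.364 from edgeR, and again both SN-011 libraries were the lower.

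The difference in Ly6a crossed the threshold under some settings. Its adjusted p was 0.0163 in the edgeR exact test, 0.0292 with the replicate block, 0.486 in DESeq2 and between 3.13e-05 and 0.875 with a library left out. With every gene of at least 1 count tested it was 1.18e-14 for Ly6a and 0.000861 for Ly6e in edgeR, in a fit with 108260 total degrees of freedom per gene, against 13.1 with the filter used here. The lowest value with a library left out came without H151 replicate 1, when the log2 fold change was -0.79. Without H151 replicate 2 it was -0.24, so the size of the difference depends on which H151 library is read. For Ly6i the log2 fold change between the antagonists had an interval from -1.37 to 0.52 and an adjusted p of 0.810, for Ly6c2 from -0.84 to 0.95 and 0.982, and for Ly6c1 from -2.40 to 0.31 and 0.653, all from edgeR. These intervals are wide and all include 0, and differences within them were not detectable at this depth. In 39.7% of all tested genes the libraries of the antagonists did not overlap, as in 4 of the 5 tested members, and 2 members had an unadjusted p under 0.05 while 0 passed in DESeq2.

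The wider family was read from a list of 43 genes with an LY6 or urokinase-receptor domain, of which 38 were matched in the annotation, 21 had any count and 9 were tested. It holds a name listed in error, D730005E14Rik, which is annotated as an antisense RNA beside Apobec3 and is no family gene. In Trex1-/- against WT cells 3 of the 9 passed as higher and none as lower in edgeR's test, against 9.27% and 7.11% of all tested genes. The 3 had 4, 1 and 0 counts in the WT libraries together, so they entered the test through the groups where they are high, and are given below by their counts, with no p-value. With a minimum count of 30 none of the list passed. The median log2 fold change of the 9 was 1.74, against -0.002 over all tested genes, and 1.81 over the 8 left without the antisense RNA. This median includes such rare genes too, and nothing is read from it or from the count. Cd177, a surface antigen of neutrophils, had 3 and 1 counts in WT and 22 and 40 in Trex1-/-. In the antagonist groups Cd177 had 20 to 23 counts with H151 and 19 to 24 with SN-011.

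Both of the other family genes that passed lie inside the Ly6 cluster or beside it. 2010109I03Rik (chromosome 15, 74876987 to 74897021) had 1 count in the WT libraries together and 42 in Trex1-/-. Its WT libraries lay below the floor of 3 counts, so no ratio is given. The counting interval of the ratio ran from 7.12 to 1694. I830127L07Rik (75131377 to 75135128), annotated as a transcribed pseudogene between Ly6c2 and Ly6g, had 0 counts in both WT libraries. It had 8 and 6 counts in Trex1-/-, 16 and 8 with H151, and 23 and 25 with SN-011. Against the floor of 3 counts per library it was at least 2.33-fold higher in Trex1-/-, and with this bound in place of its fitted value the median over the 9 genes was 1.22. Without WT replicate 1, WT replicate 2 or Trex1-/- replicate 1 it did not pass and 2 family genes did, and its 14 counts were too few for it to be tested in the fit of these 2 groups alone. None of its 150-base windows occurred in another gene.

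The other tested family genes did not pass in Trex1-/- against WT cells. Plaur, the urokinase receptor, had means of 16.0 CPM in WT and 17.2 CPM in Trex1-/-, and Cd59a, an inhibitor of complement, 10.6 and 9.81 CPM. Lynx1, which binds nicotinic receptors, had 3.28 and 2.82 CPM. Gpihbp1, which carries lipoprotein lipase across capillary cells, had 5 counts in WT and 19 in Trex1-/- (adjusted p 0.0804 in edgeR), and Cd59b had 8 and 27 (adjusted p 0.213). The listed antisense RNA D730005E14Rik went from 3.71 to 5.79 CPM (adjusted p 0.0761 in edgeR) and passed as higher in the edgeR exact test. Under H151 no family gene passed, with 2 at an unadjusted p under 0.05 and 0 in DESeq2. Under SN-011 the antisense RNA D730005E14Rik alone passed, going from 5.79 ± 0.55 to 2.77 ± 0.64 CPM (SD, n = 2). The strand setting of the counting is not given, so whether its value includes reads of Apobec3 is not known. The call of D730005E14Rik (adjusted p 0.0283 in edgeR) was lost in DESeq2 (0.0731) and without Trex1-/- replicate 1 (0.189), Trex1-/- replicate 2 (0.0598), SN-011 replicate 1 (0.403) or SN-011 replicate 2 (0.0552). I830127L07Rik, not called under SN-011 here, passed as higher in the edgeR exact test and with every gene of at least 1 count tested. Between the antagonists none passed in edgeR, with 2 at an unadjusted p under 0.05 and 0 in DESeq2.

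Most genes around the members were silent. Within 200 kb of either end of the cluster lie 29 other annotated genes, of which 11 had any count and 3 were tested. All 3 passed as higher in Trex1-/- against WT cells, where 9.27% of all tested genes did. The 2 of them that are family genes were tested through the groups where they are high. None passed in the other comparisons in edgeR's quasi-likelihood test or DESeq2, with I830127L07Rik alone at an unadjusted p under 0.05, under SN-011. The neighbour not yet described is Gm39556 (74929437 to 74936316), a long noncoding RNA upstream of Ly6e, which went from 1.48 to 5.79 CPM in mean, a log2 fold change of 1.96 ± 0.26 (SE, adjusted p 0.0001 in edgeR). Its mean was 5.32 CPM under H151 and 5.26 CPM under SN-011. Ly6c1, which lies between Ly6a and Ly6c2, was the tested gene of the region that did not pass.

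**Figure D4:**
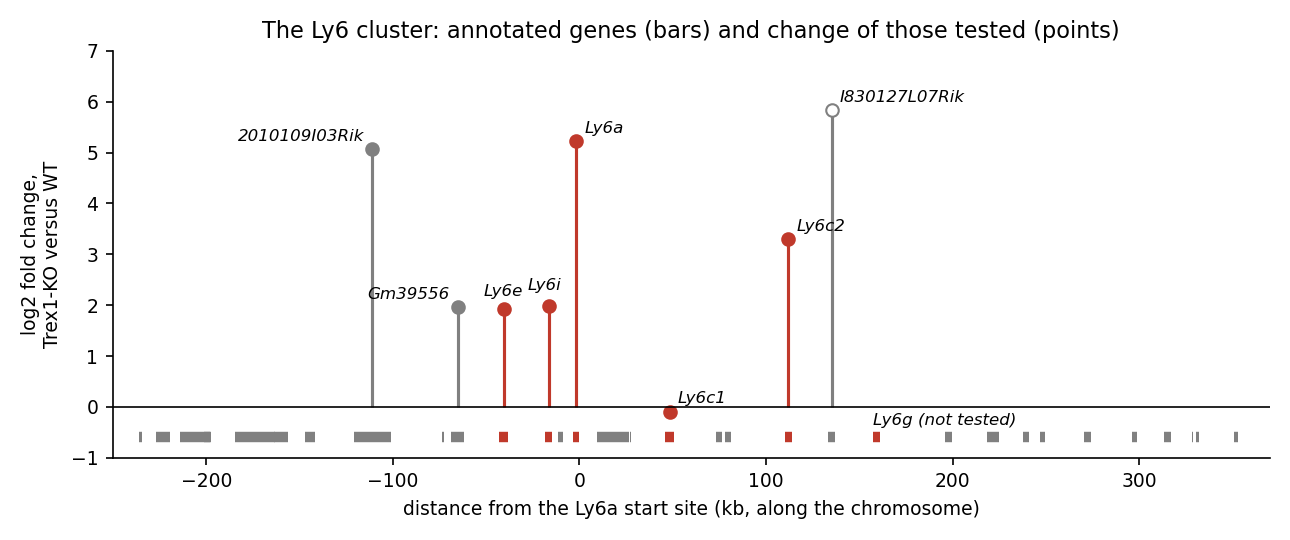
Annotated genes of the Ly6 cluster (bars; red for the 6 members) by distance from the start site of Ly6a in kb, and the log2 fold change in Trex1-/- against WT cells (points) of the 8 genes tested there. The open point of I830127L07Rik is a fitted value against 0 counts and no measure of size. The points of 2010109I03Rik and Ly6c2 rest on 1 and 4 counts in the WT libraries together, so their size is poorly known. Ly6c1 lies near 0 between Ly6a at 5.23 and Ly6c2 at 3.29.

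Other genes were compared with Ly6a by Pearson's r of their log2 CPM over the 8 libraries, among 10714 tested genes whose log2 CPM averaged at least 2. Among the 10 most alike were Arhgef18 (r = 0.994), Atp8b4 (0.994), Psap (0.993), Ifnar2 (0.992), Gm11868 (0.991), Cysltr2 (0.991), Plcg2 (0.990), Ngp (0.990) and H2-Eb1 (0.990). Cysltr2 is a leukotriene receptor, Ifnar2 a subunit of the type I interferon receptor, H2-Eb1 a class II antigen-presenting chain and Ngp a neutrophil granule protein. For Ly6e r was 0.981, and the median over all genes was 0.055. The 8 points are 2 WT libraries and 6 that share the genotype, so r is set mostly by that split and is a description only. Genes with a high r differed widely in size, since the log2 fold change in Trex1-/- against WT cells was 0.24 for Ifnar2, 3.54 for Ngp and 5.23 for Ly6a.

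Since LY6 antigens mark several blood cells, markers of other cell types were read in the same libraries. Of 10 neutrophil markers 7 were tested and all 7 rose in Trex1-/- against WT cells, with none called under either antagonist in edgeR or DESeq2, and 0 at an unadjusted p under 0.05. Camp and Retnlg were lowest in WT replicate 1, at 1 and 3 counts, below the filter's minimum count of 10. Both were thus kept through the groups where they are high and had to differ, so nothing is read from the count of 7. The list summed to 259 to 286 CPM in WT, 411 to 426 CPM in Trex1-/-, 406 to 436 CPM with H151 and 389 to 434 CPM with SN-011. Most of that sum was Csf3r. S100a8 ran from 2.44 to 19.3 CPM and S100a9 from 2.72 to 29.9 CPM, lowest in WT, while Mpo had 0 to 11 counts and Elane 0 to 7. The 6 neutrophil genes at least 2-fold higher in Trex1-/- cells had a median share of 103% of the difference left with H151 and 120% with SN-011. The median log2 fold change of the tested markers was 2.89 in Trex1-/- against WT cells, 0.024 under H151 and 0.11 under SN-011, and that of Ly6a was 5.23, 0.075 and -0.47 in the same order. The value of 2.89 takes in Camp and Retnlg, so nothing is read from it either. The part of neutrophils in the Ly6 values was not tested.

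Of 7 monocyte markers 3 rose and 2 fell in Trex1-/- cells. In this comparison 9.27% of all tested genes rose and 7.11% fell, shares that stand beside the counts of the lists below too. Ccr2, the chemokine receptor of the monocytes that carry Ly6C, went from 18.8 ± 2.1 to 77.3 ± 1.5 CPM and F13a1 from 373 ± 3.8 to 154 ± 7.8 CPM (SD, n = 2). The list summed to 416 to 427 CPM in WT and 229 to 279 CPM in the other libraries. Most of that sum was F13a1, so its fall says little of the other markers. In mean, Chil3 went from 0.47 to 6.66 CPM and Plac8 from 1.92 to 10.5 CPM, while Hp went from 6.79 to 2.08 CPM. Chil3, rare in WT, bears the limit given for Camp and Retnlg. Of 6 endothelial markers Cdh5, Kdr and Vwf rose, and the list summed to 33.7 to 37.3 CPM in WT and 58.2 to 78.3 CPM in the others. Of 7 fibroblast markers 6 were tested and 5 fell, among them Col1a1, Col1a2 and Col3a1, with sums of 2097 to 2297 CPM in WT and 861 to 1220 CPM in the others. Of 7 progenitor markers, cells that Sca-1 helps to sort, 3 were tested and Cd34 rose in edgeR, from 1.49 to 3.25 CPM in mean, a call lost in DESeq2. Their sum was 6.57 to 11.1 CPM in all libraries, and Kit had 8 to 31 counts and Flt3 0 to 9.

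Most markers of lymphoid cells were near 0, with Cd4, Cd79b and Tcf4 as exceptions. Cd3e, Cd3g and Cd3d had at most 3 counts in any library, Ms4a1 at most 2 and Siglech, a marker of plasmacytoid dendritic cells, at most 1. Cd79a had 4 to 12 counts and Ccr9 1 to 8, while Cd79b had 23 to 54 and Cd4 227 to 492. The T and natural killer cell list, nearly all of it Cd4, summed to 18.5 to 34.4 CPM, the B cell list to 2.28 to 5.17 CPM and the plasmacytoid list, nearly all of it Tcf4, to 222 to 254 CPM. In each of these 3 lists 1 gene was tested, and of them Cd4 fell in Trex1-/- cells, with a log2 fold change of -0.68. The part of any of these cell types in the Ly6 values was not tested.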

How the data were processed

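According to the study's methods, the authors used Trimmomatic on the read pairs, hisat2 for alignment and featureCounts to count pairs that mapped uniquely, whereas the submitters' processing notes name HISAT2, HTSeq and mm10. Versions and the strand setting are not given in the sources used here. The deposited values are raw counts per Ensembl gene, one file per library, with no normalization. Names, exons and transcripts came from GENCODE mouse release M21 (GRCm38), which held 54495 identifiers and lacked 37.

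In R 4.3.3, genes were kept with filterByExpr (minimum count 10, minimum total 15), and 1 edgeR 4.0.16 quasi-likelihood fit with TMM factors and 1 mean per group covered all 8 libraries, leaving 4 residual degrees of freedom. Tests were two-sided, adjusted by Benjamini-Hochberg over the tested genes, with an FDR threshold of 0.05. The common biological coefficient of variation was 0.0656. SE values are the size of the log2 fold change divided by the root of F, and intervals are at 95%. The fit was tested on simulated data. An exact permutation of 2 libraries against 2 cannot go below p = 0.333 and was not used. For the likeness to Ly6a, 0.5 was added to CPM before taking log2.

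The members and lists were chosen with earlier results of these data known. Named genes are the members, family and neighbouring genes that were called or among the 8 most abundant, the 10 genes most like Ly6a, and the 3 leading markers of each list, and any other was chosen after its values were seen. Some genes that this rule names are not reported here. Alternatives were library totals without TMM, DESeq2 1.42.0, a filter of at least 1 count, a minimum count of 30, edgeR's exact test, fits of 2 groups, a replicate block and each library left out. Protein sequences and the promoters of Ly6a, Ly6e and Ly6i were not used here.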

Additional observations from a re-analysis of the deposited data

How the results depend on the processing

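Of 802 recomputed log2 fold changes of the named family genes, 782 kept their direction. With a minimum count of 30, 2 members and 0 other family genes passed in Trex1-/- against WT cells, since the rare genes were not tested. With every gene of at least 1 count tested, 1 member passed under H151, 2 under SN-011 and 2 between the antagonists, and 2 other family genes under SN-011, in a fit with 108260 total degrees of freedom per gene, against 13.1 with the filter used here. The edgeR exact test called 2 members and 2 family genes under SN-011 and 1 member between the antagonists, and the fit of only 2 groups called 2 members under SN-011. In Trex1-/- against WT cells the exact test called D730005E14Rik as well. DESeq2 called 0 family genes under SN-011, as did the list without the antisense RNA, an alternative chosen after seeing the data.

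The replicate numbers were used as a block because the titles share them, although the labels do not say what they mark, and with 2 pairs a shared number is no evidence of pairing. Same-numbered deviations correlated at 0.45 between Trex1-/- and H151 libraries and between -0.05 and 0.10 for other pairs of groups. With the block, 1 member passed under H151, 2 under SN-011 and 1 between the antagonists, the last being Ly6a (log2 fold change -0.53, adjusted p 0.0292 in edgeR). In Trex1-/- against WT cells the block called the same 4 members and 3 family genes.

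With a library left out, the arm with 1 library was assumed to vary like the others. Between 3 and 4 members and between 2 and 3 family genes then passed in Trex1-/- against WT cells, 0 to 1 members and 0 family genes under H151, 0 to 2 members and 0 to 1 family genes under SN-011, and 0 to 1 members between the antagonists. The share of the Ly6a difference left ran from 85.1% to 125.5% with H151 and from 69.3% to 73.8% with SN-011. Directions turned for genes that had not passed. Gpihbp1 under H151 was at 0.023 with library totals, at 0.013 in DESeq2 and between -0.50 and 0.42 with a library left out, against -0.0013 with all 8. With a library left out, Cd59a ran from -0.26 to 0.060 in Trex1-/- against WT cells and from -0.18 to 0.073 between the antagonists, and Cd59b from -0.96 to 1.01 under H151. Between the antagonists Cd177 ran from -0.18 to 0.026 and Ly6c2 from -0.079 to 0.20. The signs of Ly6c1 in Trex1-/- against WT cells and under SN-011, of Ly6c2 under H151 and SN-011, and of Ly6a under H151 turned without 1 library too.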

Other observations

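The genes that build, attach and remodel the GPI anchor, by which LY6 proteins are held on the membrane, were read as a list of 29, of which 28 were matched and tested. In Trex1-/- against WT cells 4 rose and none fell in edgeR's test, against 9.27% of all tested genes higher and 7.11% lower. They were Pigu (log2 fold change 0.37 ± 0.10 SE, adjusted p 0.0148), Pigv (0.33 ± 0.10, adjusted p 0.0352), Pgap2 (0.33 ± 0.10, adjusted p 0.0349) and Pigk (0.23 ± 0.07, adjusted p 0.0313). Pigk and Pigu are parts of the transamidase that attaches the anchor, Pigv adds a mannose to it and Pgap2 acts in its later remodelling. These genes were named after their values were seen. The median over the list was 0.06, against -0.002 over all tested genes, and the list summed to 892 to 907 CPM in WT and 942 to 980 CPM in the other libraries. Under H151, under SN-011 and between the antagonists 0 of the 28 passed in edgeR and in DESeq2, with 1, 0 and 1 at an unadjusted p under 0.05. In DESeq2, 1 passed in Trex1-/- against WT cells.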
